A study of Mus musculus with 2 samples.

Results

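Tox, Eomes, Tbx21, Prdm1, Zeb2, Runx3, Bach2 and Id3 encode transcription factors that steer T cells and natural killer (NK) cells between resting, effector and exhausted states. These 8 genes, of 24510 in the deposited table, were read in the NK, CD8 T, regulatory T (Treg) and conventional CD4 T cells of B16F10 tumours, a transplantable mouse melanoma line. The genes were taken as a named set and not by a rule on their values, but earlier results of these data were known. The cells were gated on raw counts of marker genes other than these 8. The tumours grew under the skin of female C57BL/6 mice from Tyr knockout, Oca2 knockout or wild-type cells, with 3 mice for each of the 3 tumour genotypes. Sorted CD45+ leukocytes of each genotype received a sample tag and went through 1 BD Rhapsody capture, a microwell system for single-cell whole transcriptome libraries. The sources used here do not say which of tags 8, 9 and 10 marks which genotype, nor that mice were tagged apart, so values are given by tag and no genotype was compared.

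In a T cell that has met its antigen, T-bet (Tbx21) and its relative eomesodermin (Eomes) drive the cytotoxic programme, and both are also needed to build NK cells. Blimp-1 (Prdm1) and ZEB2 push cells to terminal effector states, RUNX3 holds the CD8 and cytotoxic lineage, and TOX installs and maintains the exhausted state under lasting antigen. BACH2 and ID3 act on the other side, since both help to keep cells in a resting, memory or progenitor state, and BACH2 is known to repress Prdm1.

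The promoters of 4 of the genes are shown because these genes include the T-box pair that was high in NK cells, Prdm1, which was highest in Treg cells, and Runx3, whose levels overlapped across the gates. Each is the RefSeq window of 250 bases before to 50 after the annotated start on GRCm38.p6, read 5′ to 3′, and 7 of the 8 members had an entry. Capitals mark exact matches, on either strand, to TGTGGT (a RUNX core), GGTGTGA (a T-box core), TGANTCA (shared by BACH and AP-1 factors) or CACCTG (an E-box bound by ZEB factors), and no 2 marked matches overlap. Of 32851 promoters of this length, 16.8% held TGTGGT, 3.98% GGTGTGA, 7.81% TGANTCA and 20.2% CACCTG, on either strand. The windows are chr9:118477939-118478238 on the plus strand (Eomes), chr11:97115282-97115581 on the minus strand (Tbx21), chr10:44458699-44458998 on the minus strand (Prdm1) and chr4:135120395-135120694 on the plus strand (Runx3, the first of 2 windows listed).
Eomes promoter: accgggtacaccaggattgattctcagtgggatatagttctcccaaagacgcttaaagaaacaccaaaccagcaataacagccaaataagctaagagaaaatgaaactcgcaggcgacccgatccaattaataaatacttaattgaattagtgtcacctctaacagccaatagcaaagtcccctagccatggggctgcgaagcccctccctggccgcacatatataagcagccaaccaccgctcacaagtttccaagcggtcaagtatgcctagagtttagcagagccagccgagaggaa
Tbx21 promoter: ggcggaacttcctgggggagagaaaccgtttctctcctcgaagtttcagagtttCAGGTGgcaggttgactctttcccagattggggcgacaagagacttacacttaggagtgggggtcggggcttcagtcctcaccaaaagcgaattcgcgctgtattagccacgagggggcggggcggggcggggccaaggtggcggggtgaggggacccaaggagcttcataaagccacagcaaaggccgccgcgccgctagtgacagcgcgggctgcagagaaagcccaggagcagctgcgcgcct
Prdm1 promoter: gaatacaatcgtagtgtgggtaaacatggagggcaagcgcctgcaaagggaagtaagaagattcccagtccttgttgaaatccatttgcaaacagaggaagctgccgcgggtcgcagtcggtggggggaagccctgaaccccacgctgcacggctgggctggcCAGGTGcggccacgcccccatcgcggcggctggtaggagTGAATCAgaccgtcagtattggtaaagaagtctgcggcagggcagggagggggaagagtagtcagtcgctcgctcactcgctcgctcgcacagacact
Runx3 promoter: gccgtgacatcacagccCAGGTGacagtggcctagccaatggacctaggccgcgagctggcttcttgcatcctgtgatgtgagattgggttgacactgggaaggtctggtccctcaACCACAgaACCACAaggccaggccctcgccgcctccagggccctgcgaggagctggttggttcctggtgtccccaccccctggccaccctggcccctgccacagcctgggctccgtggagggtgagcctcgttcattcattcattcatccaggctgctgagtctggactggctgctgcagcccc
The Eomes window held none of the 4 motifs, and the Tbx21 window held 1 match, to CACCTG. The Prdm1 window held 1 match to TGANTCA and 1 to CACCTG. The Runx3 window held 2 adjacent matches to TGTGGT and 1 to CACCTG. A match is a description of letters only.

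All 8 are protein-coding genes. On GRCm38 Tox lies on chromosome 4 from 6686353 to 6991557 (minus strand), Eomes on chromosome 9 from 118478212 to 118486132 (plus), Tbx21 on chromosome 11 from 97098071 to 97115331 (minus) and Prdm1 on chromosome 10 from 44437177 to 44528501 (minus). Zeb2 lies on chromosome 2 from 44983632 to 45117395 (minus). Runx3 (135120652 to 135177990), Bach2 (32238804 to 32586108) and Id3 (136143497 to 136145755) lie on the plus strand of chromosome 4. The table also counts genes on the strand opposite Tox (Gm11802), Eomes (Gm33460), Zeb2 (Zeb2os), Runx3 (Gm16224) and Bach2 (Bach2os). The sources used here do not give whether counting used strand, so reads of these pairs may not be told apart.

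After filtering, 10491 single-tag cells remained (3336, 3486 and 3669 in tags 8, 9 and 10), and no 2 cells shared a barcode. The 4 gates held 178 NK cells (42, 67 and 69), 815 CD8 T cells (179, 306 and 330), 182 Treg cells (55, 68 and 59) and 318 CD4 T cells (90, 110 and 118). Median depth was 4793.5, 4367, 4121 and 2941.5 molecules per cell. The NK gate was redrawn after the data were seen. It had been set to cells with no T receptor molecule, but 81.2% of 266 Ncr1+ NK cells carried Trbc1 and 39.1% Trbc2, against 3.57% and 6.07% of 280 B cells. Only 22 cells (4, 10 and 8) passed. The gate used here asks instead for no Cd3d, Cd3e, Cd3g or Trac and allows Trbc1 and Trbc2. Some markers outside a gate's own rule were also read. The CD8 chain genes Cd8a and Cd8b1, which the NK gate did not use, summed to 0 to 2.27 CPM in NK cells, against 1325 to 1379 in CD8 T cells, whose gate asked for them. Zbtb7b, the CD4 lineage factor, had 3.07 to 8.11 CPM in CD8 T cells and 11.1 to 30.2 in CD4 T cells, but it was not particular to CD4 T cells, with 8.63 to 25.3 in NK cells, 19.7 to 24.3 in Treg cells and 27.6 to 32.4 in macrophages. Pmel, Mlana, Dct and Tyrp1, pigment genes of the melanoma, summed to as much as 1242 CPM in CD8 T cells and 3313 in CD4 T cells of 1 tag, and 5 CD8 T, 1 Treg and 1 CD4 T cell held 20 or more such molecules.

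Levels are CPM, the molecules of a gene summed over the cells of a gate and tag and divided by all molecules there. Intervals are exact 95% Poisson, Clopper-Pearson or conditional binomial intervals and cover counting error only. A gene with 30 or more molecules over both gates is called when all 3 tags show a ratio of 2-fold or more, and all point one way. With unnamed tags no test was run, and a ratio in the same direction in 3 tags cannot reach a two-sided sign p below 0.25.

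**Figure D1:**
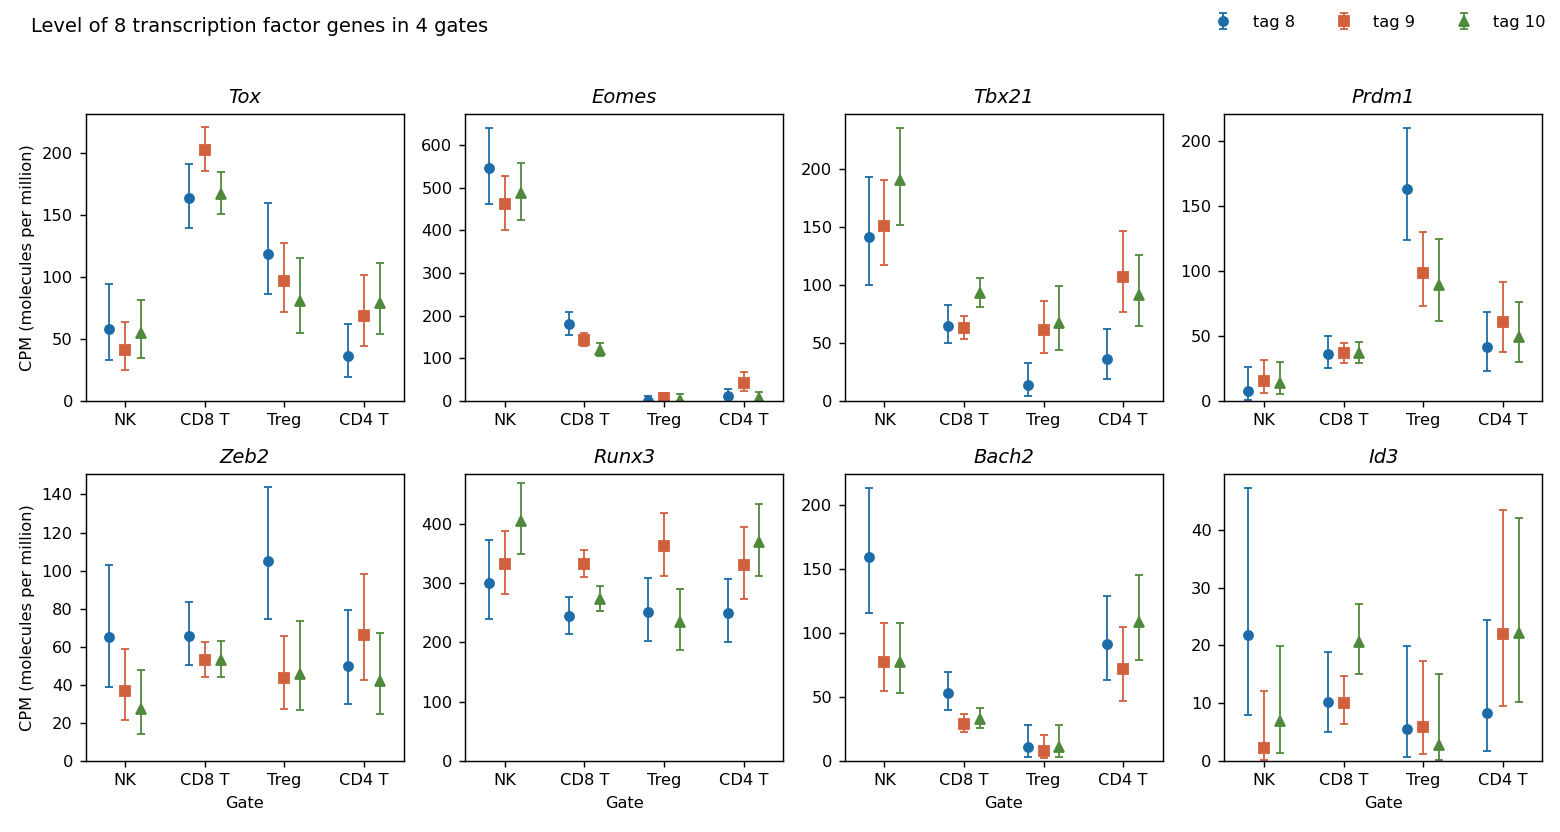
Each panel plots 1 gene, with CPM on the vertical axis from 0 and the NK, CD8 T, Treg and CD4 T gates along the horizontal axis. Points are tags 8, 9 and 10, and bars are exact 95% Poisson intervals. Eomes is highest in NK cells (462 to 546 CPM), Tox in CD8 T cells (164 to 203) and Prdm1 in Treg cells (89.0 to 163).

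NK cells set against CD8 T cells compared the cytotoxic lymphocytes of the tumour. Of the 8 genes, 3 were higher in NK cells (Eomes, Tbx21 and Bach2) and 2 lower (Tox and Prdm1), where 2.06% and 2.04% of 9543 genes were called. NK cells thus carried more of both T-box genes and less of Tox, and they also carried more of Bach2.

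Eomes had 546, 462 and 488 CPM in the NK cells of tags 8, 9 and 10, and 180, 144 and 120 CPM in the CD8 T cells. NK cells were higher in every tag and the gates did not overlap. The log2 ratios were 1.60 (1.28 to 1.92), 1.68 (1.43 to 1.93) and 2.02 (1.76 to 2.28). Eomes molecules were found in 74.7% of NK cells and 37.9% of CD8 T cells, against 0.734% of macrophages, which had a median of 8545.5 molecules per cell and should lack the gene. With each cell thinned to 1000 molecules the shares were 38.2% (31.0 to 45.8) in NK cells and 10.8% (8.71 to 13.1) in CD8 T cells.

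Tbx21 had 141, 151 and 190 CPM in NK cells and 64.5, 62.7 and 93.0 in CD8 T cells. Its log2 ratios of 1.13, 1.27 and 1.03 lay just past the 2-fold line. Leaving out the cells rich in melanoma molecules, or thinning the cells, took at least 1 tag under that line, with medians of 1.13 and 1.38. So did taking NK cells by any of the 3 receptor genes (1.01). Tox, by contrast, had 57.9, 41.0 and 54.4 CPM in NK cells and 164, 203 and 167 in CD8 T cells, with log2 ratios of -1.50, -2.31 and -1.62. Every tag showed the lower level in NK cells. In thinned cells Tox was found in 1.69% of NK cells (0.349 to 4.85) and 15.3% of CD8 T cells (12.9 to 18.0).

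Prdm1, the gene of the terminal differentiation factor Blimp-1, had 2, 7 and 6 molecules in NK cells, or 7.24, 15.1 and 13.6 CPM, and 35.9, 36.5 and 36.7 CPM in CD8 T cells. The log2 ratios were -2.31, -1.27 and -1.43, with wide intervals (-5.41 to -0.35 in tag 8), and the median was -0.06 in thinned cells and -0.70 when CPM was averaged over cells, where the call ended. It also ended with no other-lineage molecule allowed (-1.62) and with NK cells taken by any receptor gene (-0.83). Bach2 had 159, 77.6 and 77.1 CPM in NK cells and 53.3, 29.0 and 32.9 in CD8 T cells. NK cells were higher in every tag, at 1.58, 1.42 and 1.23, but not past 2-fold in all tags with stricter gates (median 1.06).

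Runx3 and Zeb2 were not called. Runx3 had 300.3, 332 and 406 CPM in NK cells and 244, 332 and 273 in CD8 T cells, and the gates overlapped. Zeb2, which in mice is needed for NK cells to mature, had 65.1, 36.7 and 27.2 CPM in NK cells and 65.6, 52.8 and 52.9 in CD8 T cells. Id3 molecules were few in NK cells, with 6, 1 and 3, and all 6 of tag 8 came from 1 cell.

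Among genes known to work with these factors, Il12rb2, an interleukin 12 receptor chain, was the 1 of 6 T-box target genes called higher in NK cells (median log2 ratio 1.52). Of 29 partner transcription factors compared, 3 were higher, among them Irf8 (2.54) and Runx1 (2.01), and 2 lower, namely Irf4 (-2.76) and Batf (-1.05), which act together downstream of the antigen receptor. Of 9 checkpoint receptor genes 5 were lower, with Havcr2, the gene of TIM-3, at -5.23 and Pdcd1, the gene of PD-1, at -5.01. Of 13 effector genes 3 were higher, with the granzyme genes Gzmc at 3.47 and Gzma at 3.27, and 2 lower, with Gzmk at -4.09 and the chemokine receptor gene Cx3cr1 at -2.33. The median over all genes compared was -0.07, against -1.47 over the checkpoint list, -0.05 over the effector list, 0.34 over the partner factors and 0.69 over the T-box targets.

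The 22 cells of the first NK gate gave Eomes at 836, 913 and 491 CPM, against the same CD8 T cells. Eomes and Bach2 were called higher (medians 2.21 and 2.56), and no member was called lower, where 1.9% and 0.205% of 9260 genes were called. The floor of 3 molecules was 314, 85.6 and 98.2 CPM in this gate. That lay above the CD8 T levels of Prdm1 (35.9 to 36.7) and Id3 (9.92 to 20.5), so neither could be called lower. The median gene of this comparison stood at 0.57, or 0.04 with TMM scaling (trimmed mean of M values). Under that scaling 36.0% of the calls over all genes were higher, against 90.3% on the CPM scale, and Tox was called lower at -1.65.

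CD8 T cells set against CD4 T cells gave 2 members higher, Tox and Eomes, and none lower, where 2.89% of 9573 genes were called higher and 1.82% lower. The remaining cytotoxic factors, Tbx21, Runx3, Zeb2 and Prdm1, were not 2-fold apart between these T cells.

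Tox had 164, 203 and 167 CPM in CD8 T cells and 36.1, 68.7 and 78.9 CPM in CD4 T cells. The gates did not overlap, and the log2 ratios were 2.18 (1.37 to 3.12), 1.56 (0.98 to 2.20) and 1.09 (0.56 to 1.65). Tox was found in 39.8% of CD8 T and 13.5% of CD4 T cells, against 0.808% of macrophages and 0.422% of B cells, which had a median of 2252 molecules. In thinned cells the shares were 15.3% in CD8 T cells and 4.11% (2.21 to 6.93) in CD4 T cells.

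Eomes had 176, 362 and 281 molecules in CD8 T cells and 4, 15 and 3 in CD4 T cells, which is 180, 144 and 120 CPM against 11.1, 41.2 and 7.39 CPM. CD8 T cells were higher in each tag, at log2 ratios of 4.02, 1.80 and 4.02, and tag 9 stood apart through its CD4 T cells. In thinned cells the median ratio was 2.14, and the gene was still called.

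Bach2 had 53.3, 29.0 and 32.9 CPM in CD8 T cells and 91.7, 71.5 and 108 in CD4 T cells. The ratios of -0.78, -1.30 and -1.72 all pointed one way, and the 2-fold rule failed in tag 8 alone. Without tag 8 Bach2 was called lower. Tbx21 had 64.5, 62.7 and 93.0 CPM in CD8 T cells and 36.1, 107 and 91.2 in CD4 T cells, so its direction differed between tags (0.84, -0.77 and 0.03). Runx3, known as a factor of the CD8 lineage, had 244, 332 and 273 CPM in CD8 T cells and 250.2, 330 and 370 in CD4 T cells, with ratios of -0.04, 0.01 and -0.44. The intervals were -0.39 to 0.33, -0.27 to 0.30 and -0.69 to -0.17, so a 2-fold difference lay outside each.

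Prdm1 had 35.9, 36.5 and 36.7 CPM in CD8 T cells and 41.7, 60.5 and 49.3 in CD4 T cells. Zeb2 had 65.6, 52.8 and 52.9 CPM in CD8 T cells and 50.03, 66.0 and 41.9 in CD4 T cells. Id3 had 10.2, 9.92 and 20.5 CPM in CD8 T cells and 8.34, 22.0 and 22.2 in CD4 T cells. None of these genes had the same direction and a 2-fold ratio in all tags.

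The lists around these factors differed more. Of 29 partner factors 2 were higher in CD8 T cells, Irf8 (1.93) and E2f1 (1.52), and 5 lower, led by Maf (-4.14), a factor of helper and follicular T cells, and Zbtb7b (-1.86). Of 13 effector genes 5 were higher, led by Prf1, the gene of perforin (3.86), Gzmc (3.48), the granule gene Nkg7 (2.15) and the chemokine gene Ccl5 (2.04). Prf1, which stands in both lists, was the 1 of 6 T-box targets called. Of 10 checkpoint genes 4 were higher, led by Havcr2 (2.79) and Cd160 (2.59), and of 10 progenitor and resting genes 4 were lower, led by the interleukin 7 receptor gene Il7r (-2.28) and S1pr1 (-1.94), a receptor for exit from tissue. Of 12 cell cycle genes 11 were higher (list median 1.81). Their part in the ratios of the members was not tested. List medians were 2.01 (effector), 1.34 (checkpoint), -0.98 (progenitor), -0.53 (partner factors) and -0.19 (T-box targets), against 0.04 over all genes compared.

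Treg cells set against CD4 T cells gave 1 member lower, Bach2, and none higher, where 2.05% of 7355 genes were called lower and 2.39% higher. Eomes and Id3 had too few molecules in these gates for a ratio, which leaves 6 members compared.

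Bach2 had 4 molecules in the Treg cells of each tag, or 11.1, 7.87 and 10.8 CPM, and 91.7, 71.5 and 108 CPM in CD4 T cells. The gates did not overlap, with log2 ratios of -3.05 (-5.01 to -1.56), -3.18 (-5.16 to -1.66) and -3.33 (-5.27 to -1.87). The Treg level was near that of macrophages (11.8 to 15.3 CPM). In thinned cells 0.552% of Treg cells (0.014 to 3.04) and 8.86% of CD4 T cells (5.97 to 12.6) held Bach2, and with so few molecules left the call ended there, at -1.41.

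Prdm1 had 163, 98.4 and 89.0 CPM in Treg cells and 41.7, 60.5 and 49.3 in CD4 T cells. Treg cells were higher in every tag, and the gates did not overlap, but the ratios of 1.97, 0.70 and 0.85 were not all past 2-fold. Tag 8 held the highest Treg level. Thinned cells with Prdm1 made up 12.2% of Treg cells (7.78 to 17.8) and 5.38% of CD4 T cells (3.16 to 8.47). Tox had 119, 96.4 and 80.9 CPM in Treg cells and 36.1, 68.7 and 78.9 in CD4 T cells, with ratios of 1.72, 0.49 and 0.04, so that tag 8 again had the largest ratio. The 5 dendritic cell markers, all found in Treg cells, summed there to 318 CPM in tag 8, 68.9 in tag 9 and 43.2 in tag 10, and their part in the Prdm1, Tox and Zeb2 ratios was not tested.

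The T-box genes were scarce or variable in Treg cells. Eomes had 0, 3 and 1 molecules in Treg cells, or 3.22 CPM over the tags (0.878 to 8.25), a level no higher than the 4.31 CPM of B cells. It was found in 1.65% of Treg cells. In tag 8, with 0 molecules, the exact upper limit was 10.2 CPM, and the floor of 3 molecules used in ratios would be 8.29 CPM. Tbx21 had 13.8, 61.0 and 67.4 CPM in Treg cells and 36.1, 107 and 91.2 in CD4 T cells, with ratios of -1.39, -0.81 and -0.43. Within each of these gates tag 8 held the lowest Tbx21 level. Runx3 had 251, 362 and 235 CPM in Treg cells and 250.2, 330 and 370 in CD4 T cells, and Zeb2 had 105, 43.3 and 45.9 in Treg cells against 50.03, 66.0 and 41.9 in CD4 T cells. Id3 had 2, 3 and 1 molecules in Treg cells and 3, 8 and 9 in CD4 T cells.

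Of 29 partner factors, Ikzf2, the gene of Helios and a Treg marker, was higher (2.79), and Foxp1, a factor of quiescent T cells, lower (-1.21). Of 10 progenitor and resting genes 6 were lower, led by Tcf7, the gene of TCF-1 (-3.92), and the trafficking factor gene Klf2 (-2.62). Of 6 T-box targets 2 were lower, namely Ifng, the gene of interferon gamma (-2.75), and Il12rb2 (-2.24). Of 13 effector genes 1 was higher, Klrg1 (3.06), a receptor of terminal effectors, and 3 were lower, led by Gzmk (-3.60) and the death ligand gene Fasl (-2.87). Of 6 checkpoint genes Ctla4 was higher (1.90). Of 12 cell cycle genes 8 were higher, and their part in the ratios of the members was not tested. The medians were -2.29 over the progenitor list, -0.97 over the T-box targets, -0.32 over the partner factors and 0.13 over the effector list, against 0.01 over all genes compared.

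**Figure D2:**
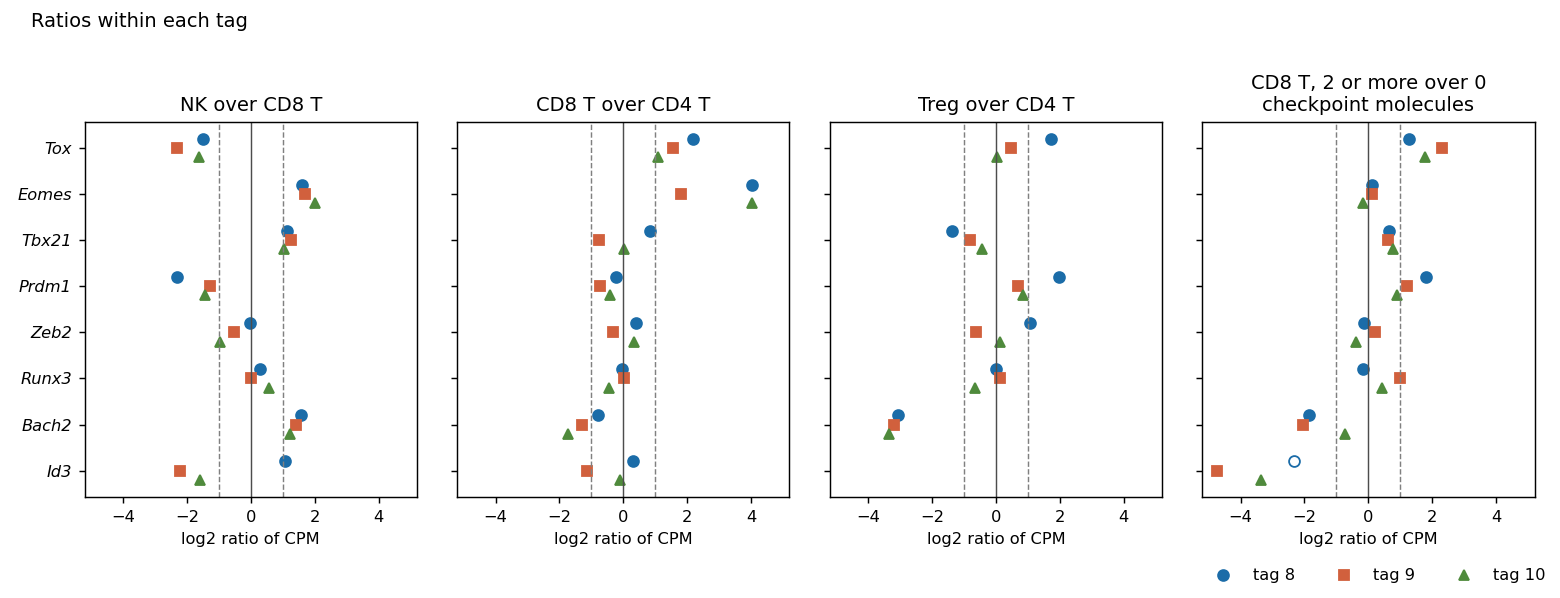
Each panel plots the log2 ratio of CPM (horizontal axis) for the 8 genes (vertical axis) in 1 comparison, with a point per tag, an open point where a gate had no molecule and the floor of 3 was used, and dashed lines at 2-fold. Genes with too few molecules have no points. Bach2 lies left of the line in every tag for Treg over CD4 T cells (-3.33 to -3.05), and Tox lies right of it for CD8 T over CD4 T cells (1.09 to 2.18).

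Within the CD8 T gate, cells with 2 or more molecules of the checkpoint receptor genes Pdcd1, Havcr2 and Lag3 (335 cells) were set against cells with none (401 cells). Tox was higher and Id3 lower in the checkpoint cells, 1 member each way, where 2.65% of 9004 genes were called higher and 4.11% lower. Eomes, which both effector and exhausted cells use, was not called. The split itself selects deep cells, with medians of 8572 and 3381 molecules. The melanoma pigment genes summed to 43.1, 32.7 and 28.4 CPM in checkpoint cells and to 70.2, 2137 and 2160 in the cells with none.

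Tox had 217, 276 and 232 CPM in checkpoint cells and 89.2, 55.3 and 67.6 CPM in the cells with none. Every tag was higher and the groups did not overlap, at log2 ratios of 1.28 (0.72 to 1.89), 2.32 (1.83 to 2.84) and 1.78 (1.34 to 2.25). At equal depth, in thinned cells, Tox was found in 25.4% of checkpoint cells (20.9 to 30.5) and in 7.58% of the others (5.17 to 10.6). Unthinned shares were 70.7% and 18.0%. Tox remained called in each alternative, with medians of 1.51 to 2.05, and stood at 1.85 among cells without Mki67 or Top2a, genes of dividing cells.

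Id3, which helps to keep memory and progenitor cells, had 0, 2 and 7 molecules in checkpoint cells and 10, 21 and 36 in cells with none. That is 0, 1.19 and 4.98 CPM against 27.0, 31.4 and 50.7 CPM, with no overlap. The log2 ratios were -2.33 against the floor of 3 molecules in tag 8, which makes it a bound, then -4.72 (-7.86 to -2.69) and -3.35 (-4.76 to -2.16). Thinned checkpoint cells held no Id3 molecule (0 to 1.10%), against 3.54% (1.95 to 5.86) of the others. Among cells without Mki67 or Top2a, Id3 had 0, 2.43 and 17.6 CPM in checkpoint cells and 32.6, 33.0 and 78.1 in the others. The 27 checkpoint cells of tag 8 held no molecule there, and the floor of 3 molecules was 26.3 CPM. With that floor the median was -2.15 and the call ended.

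Bach2 had 26.9, 14.3 and 27.0 CPM in checkpoint cells and 97.3, 58.3 and 45.1 in the others. It was lower in every tag (-1.85, -2.03 and -0.74), and was called without tag 10. Prdm1 had 46.7, 44.6 and 44.1 CPM in checkpoint cells and 13.5, 19.4 and 23.9 in the others, higher in every tag (1.79, 1.20 and 0.88) and also called without tag 10. The groups did not overlap for either gene.

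Eomes had 189, 153 and 118 CPM in checkpoint cells and 173, 141 and 134 in the others, with ratios of 0.12 (-0.34 to 0.60), 0.13 (-0.22 to 0.48) and -0.18 (-0.55 to 0.20). Its unthinned share of cells was 51.9% and 28.2%, whereas thinned cells gave 9.58% (6.65 to 13.3) and 11.6% (8.63 to 15.2), so the gap in the unthinned shares is not at equal depth. Tbx21 had 71.8, 73.1 and 111 CPM in checkpoint cells and 45.9, 47.9 and 64.8 in the others, with ratios of 0.64, 0.61 and 0.78. Zeb2 (-0.15, 0.21 and -0.38) and Runx3 (-0.16, 0.98 and 0.44) did not keep 1 direction.

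**Figure D3:**
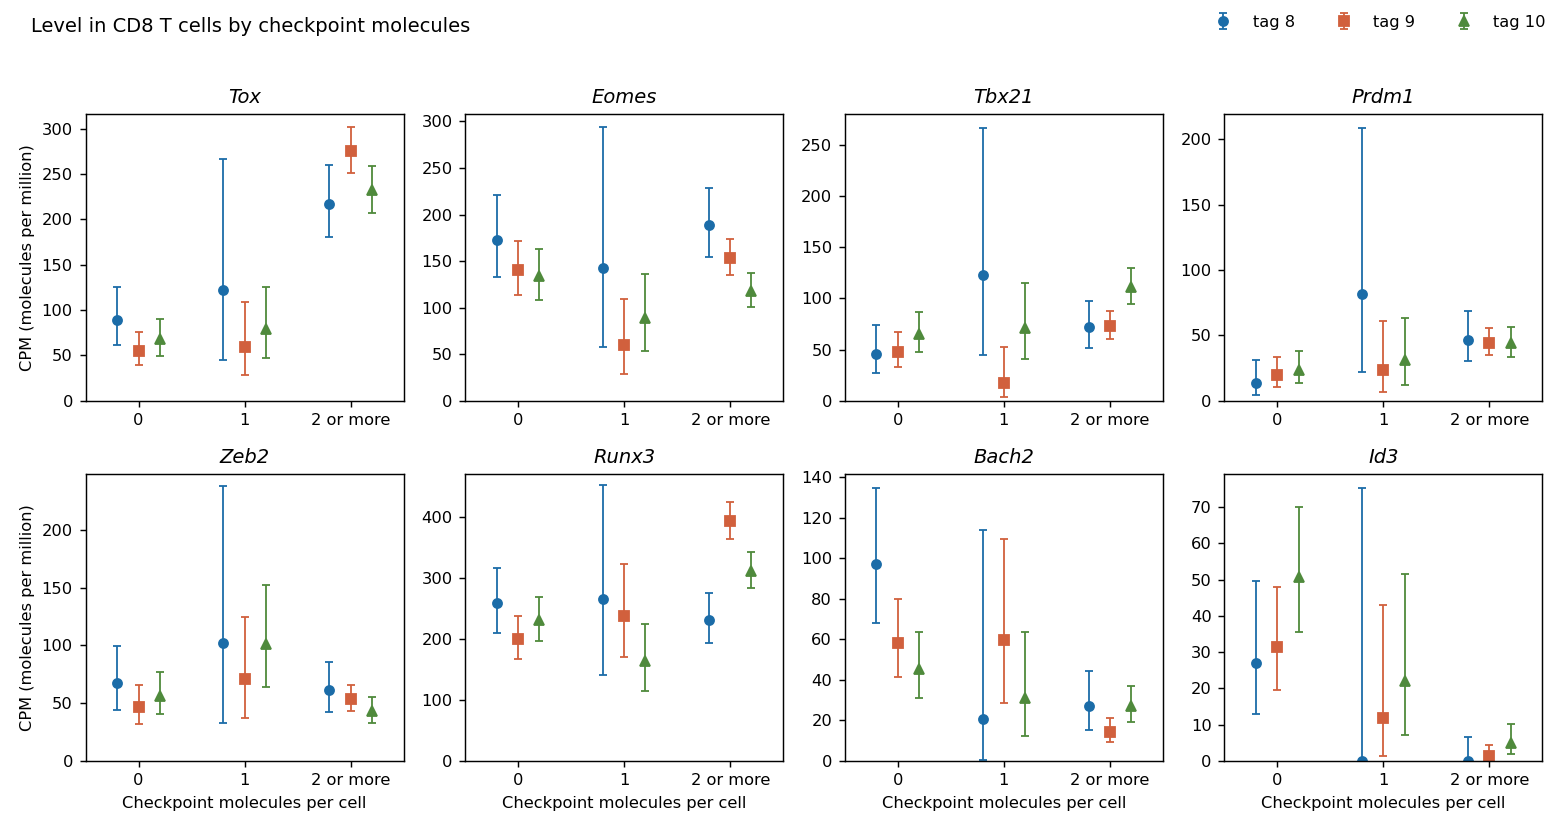
Each panel plots the CPM of 1 gene (vertical axis, from 0) in CD8 T cells with 0, 1 or 2 or more molecules of Pdcd1, Havcr2 and Lag3 together (horizontal axis), with a point per tag and exact 95% Poisson intervals. Tox stands at 55.3 to 89.2 CPM with 0 and 217 to 276 with 2 or more molecules, and Id3 at 27.0 to 50.7 CPM with 0 and 0 to 4.98 with 2 or more.

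The 79 CD8 T cells with exactly 1 checkpoint molecule had Tox at 122, 59.4 and 79.5 CPM. These levels overlapped those of cells with none and lay below those of cells with 2 or more. Bach2 stood between in tag 10 only. With 14, 26 and 39 cells, the intervals of this middle group were wide. Its cells included 2 in tag 9 and 1 in tag 10 with 20 or more melanoma molecules, which add to the total that CPM divides by. In thinned cells Tox was found in 11.5% (5.41 to 20.8) of this group and 7.58% (5.17 to 10.6) of the cells with none.

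Tox was also read by the same split outside the CD8 T gate. In CD4 T cells Tox had 159, 188 and 170 CPM with 2 or more checkpoint molecules (25 Tox molecules in 29 cells) and 26.8, 47.0 and 59.0 with none. In Treg cells it had 162, 133 and 99.3 CPM with 2 or more and 67.7, 53.2 and 41.3 with none. Every tag was higher with 2 or more molecules in both gates. The cells also differed in depth, with medians of 4176 and 2848 molecules in CD4 T cells and 9337 and 3161 in Treg cells. In thinned cells the intervals of the shares with Tox overlapped, at 6.90% (0.846 to 22.8) and 3.97% (1.92 to 7.18) of CD4 T cells and 10.7% (4.03 to 21.9) and 4.21% (1.16 to 10.4) of Treg cells, so no difference was resolved at equal depth. Prdm1 in Treg cells had 176, 103 and 52.0 CPM with 2 or more and 128, 94.6 and 103 with none, with no common direction. Id3 was not found in the 29 CD4 T or 56 Treg cells with 2 or more.

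Among the lists, the genes of resting and progenitor cells had the most calls. Of 10 progenitor and resting genes 7 were lower in checkpoint cells, among them Il7r (-3.79), Klf2 (-3.70) and S1pr1 (-3.56). Of 13 effector genes, Gzmc (4.07) and Prf1 (3.61) were higher and Gzma (-2.07) lower. Of 29 partner factors, Irf8 (2.29) was higher, and Foxp1 (-1.99), the repressor gene Zeb1 (-1.13), a relative of Zeb2, and Tcf12 (-1.12), an E protein of the kind that ID3 binds, were lower. Of 6 T-box targets, Prf1 was higher and the chemokine receptor gene Cxcr3 (-1.54) lower. Of the 6 checkpoint genes that the split did not use and that could be compared, Entpd1 (1.83) and Ctla4 (1.39) were higher. Of 12 cell cycle genes, Tyms (1.59) and Tk1 (1.56) were higher. The medians were -2.95 over the progenitor list, 0.89 over the effector list and -0.16 over the partner factors, against 0.06 over all genes compared.

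CD8 T cells with a Tox molecule (324) were also set against those with none (491), with medians of 8098.5 and 3482 molecules. The melanoma pigment genes summed to 56.5, 30.2 and 25.5 CPM in cells with Tox and to 56.1, 3100 and 2741 in those without. In the group without Tox, 3 cells of tag 9 and 2 of tag 10 held 20 or more melanoma molecules. Of the 7 other members Id3 was lower and none was higher, where 2.15% of 9236 genes were called lower and 0.974% higher. Its ratios were -2.47, -2.69 and -1.73. Eomes (0.52, 0.49 and 0.23), Tbx21 (-0.05, 0.55 and 0.46) and Bach2 (-0.47, -1.13 and 0.27) were not called. Of 9 checkpoint genes 5 were higher, led by Pdcd1 (1.83) and Lag3 (1.66). Of 10 progenitor genes 6 were lower, led by Il7r (-2.55) and Satb1 (-2.20). Irf8 (1.91) and Prf1 (1.94) were again higher, and Foxp1 (-1.37) and Gzma (-2.44) lower.

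At equal depth, thinned CD8 T cells with Tox held Prdm1 in 6.45% of 124 cells (2.83 to 12.3), and those without Tox in 3.51% of 684 (2.26 to 5.18). Bach2 was found in 1.61% (0.196 to 5.70) of the cells with Tox and 4.68% (3.22 to 6.54) of those without. For each of the other 7 members the intervals of both groups overlapped, so no difference in co-detection was resolved at this depth.

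Within the NK gate, 133 cells with an Eomes molecule were set against 45 with none, with medians of 5456 and 4257 molecules. By tag these were 5546 and 2473 (tag 8), 5265 and 5314 (tag 9) and 5420 and 3875 (tag 10), so the groups were not at equal depth. Prdm1 and Id3 had too few molecules for a ratio, which leaves 5 other members compared. None of these was called either way, where 0.282% of 5315 genes were called higher and 0.282% lower. With TMM scaling 78.8% of the calls over all genes were higher, against 50% without it. Tbx21 had 130, 129 and 185 CPM in cells with Eomes and 197, 208 and 215 in cells without, lower in every tag at -0.60, -0.70 and -0.21. Tbx21 transcript was therefore present in NK cells without an Eomes molecule. In the 22 cells of the first gate only Runx3 could be compared, and no member was called, where 0.696% of 431 genes were called higher and 1.16% lower. The gate does not set NK cells apart from type 1 innate lymphoid cells, and their genes Itga1, Cxcr6 and Tnfsf10 do not settle how many it held. These genes summed to 47.0 to 120 CPM in the NK gate, against 268 to 334 in CD8 T cells. The NK gate also set no limit on Trdc. The gamma-delta T cell genes Trdc, Tcrg-C1 and Trgv2, of which 1 was found there, summed to 58.2 to 68.0 CPM. In CD8 T cells, whose gate excluded Trdc, they summed to 13.9 to 31.6 CPM. In the cells with Eomes, Il7r (-2.95) and Ctla4 (-1.49) were lower and the E protein gene Tcf3 (1.39) and Ube2c (1.87) higher among the list genes.

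Outside the 4 gates, 3 of the genes were more abundant than in any of these lymphocytes. Zeb2 had 523, 556 and 467 CPM in macrophages and 425, 543 and 373 in neutrophils, against 27.2 to 105 in the NK and T cell gates. Bach2, a factor of B cell identity, had 314, 406 and 234 CPM in B cells, against 7.87 to 159 in the NK and T cell gates. Id3 had 135, 216 and 168 CPM in B cells and 56.5, 53.9 and 53.7 in macrophages, against 2.16 to 22.2 in the NK and T cell gates. The 6 macrophage markers summed to 32.6 to 86.2 CPM in NK cells, 63.5 to 83.7 in CD8 T cells, 44.2 to 76.8 in Treg cells and 81.3 to 158 in CD4 T cells. The 4 B cell markers summed to at most 13.8 CPM in any of these gates, with 2 of the 4 at 0 in NK and in CD4 T cells and 1 of the 4 at 0 in CD8 T and in Treg cells. All 6 macrophage markers were found in each gate. Their part in the Zeb2, Bach2 and Id3 levels was not tested.

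**Figure D4:**
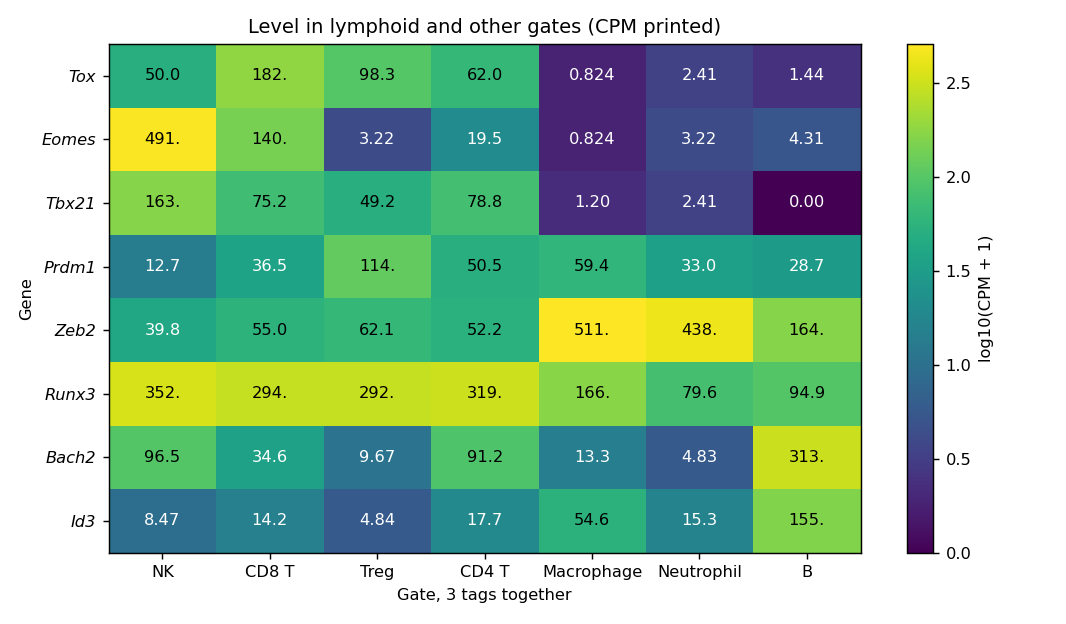
The map gives the CPM over the 3 tags together (printed) of each gene (rows) in 7 gates (columns), coloured by log10(CPM + 1). Zeb2 stands at 511 CPM in macrophages and Bach2 at 313 in B cells, while Tbx21 has no molecule in the B gate. Rows are not to be set against each other, since genes differ in how well they are captured.

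Ordered by level, Prdm1 ran Treg (89.0 to 163 CPM), CD4 T (41.7 to 60.5), CD8 T (35.9 to 36.7) and NK (7.24 to 15.1), with no overlap between neighbours. These ranges are the values of the 3 tags, not intervals. The Prdm1 log2 ratios of CD8 T to CD4 T cells had intervals that held 0 in each tag (-1.13 to 0.76, -1.41 to 0.01 and -1.14 to 0.36). The NK level rests on 2, 7 and 6 molecules, and its median ratio to CD8 T cells was -0.06 in thinned cells. Eomes ran NK (462 to 546), CD8 T (120 to 180), CD4 T (7.39 to 41.2) and Treg (0 to 5.91), also without overlap of these values. The lowest CD4 T value (tag 10) and the highest Treg value (tag 9) rest on 3 Eomes molecules each. Their intervals overlapped (1.52 to 21.6 and 1.22 to 17.3 CPM), and CD4 T and Treg cells held too few molecules for a ratio. For Tox, CD8 T cells (164 to 203) stood apart, Treg (80.9 to 119) lay just above CD4 T cells (36.1 to 78.9), and CD4 T and NK cells (41.0 to 57.9) overlapped. For Bach2, NK (77.1 to 159) and CD4 T cells (71.5 to 108) overlapped above CD8 T (29.0 to 53.3) and Treg cells (7.87 to 11.1). For Tbx21 only NK cells (141 to 190) stood apart from the others, and for Zeb2, Runx3 and Id3 neighbouring gates overlapped.

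Genes with a like pattern were looked for over the 12 sums of 4 gates in 3 tags, among 5911 genes. The sums share gates, libraries and depth, so the correlations describe these sums only. Nearest to Eomes came Klrk1, the gene of the NK receptor NKG2D (Pearson r 0.96 on log2(CPM + 10)), then Chsy1 and Serpinb6b (0.95 each). Nearest to Tox came Arl14ep and Ash2l (0.90 each) and Lag3 (0.89). Nearest to Prdm1 came Gm2a (0.96), Lamc1 and Pmaip1 (0.96 each), nearest to Tbx21 Syvn1 (0.96), and nearest to Bach2 Suco (0.95). Nearest to Zeb2 came Rinl (0.92), to Id3 Stag1 (0.89) and to Runx3 Ggnbp2 (0.86). With the first NK gate, Ccl5 (0.97) came nearest to Eomes and Klf2 (0.97) nearest to Bach2.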

How the data were processed

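The deposited values are molecule counts for each gene in each cell of 1 whole transcriptome library of CD45+ tumour cells, with a tag call per cell. Per the file headers, the authors used version 1.9.1 of the BD WTA Multiplex Rhapsody Analysis Pipeline, with GRCm38 and GENCODE vM19, while the submitters' processing notes name GRCm39. The header was followed. Tags were not mapped to genotypes. The members, lists and comparisons were chosen with earlier results of these data known.

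Single-tag cells were kept where 200 or more genes were found and mitochondrial molecules made up no more than 25%. The 1448 multiplets by tag were left out, as were 361 cells with an undetermined tag, and no doublet caller was run, so pairs with the same tag remain. T gates asked for at least 2 molecules over Cd3d, Cd3e, Cd3g, Trac, Trbc1 and Trbc2. CD8 T cells further had Cd8a or Cd8b1 and no Cd4, CD4 T cells Cd4 and neither CD8 chain, both without Foxp3, and Treg cells had Foxp3 and no CD8 chain. Cells with Trdc were excluded from T gates. NK cells had at least 2 molecules over Ncr1, Klrb1c and Klre1 with Ncr1 among them. All 4 gates allowed at most 2 molecules over 9 genes of other lineages. The macrophage, neutrophil and B gates stood beside them.

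Molecules were summed per gate and tag and scaled to CPM. Log2 ratios were taken within each tag for genes with 30 or more molecules over both gates, over all genes, and a gate at 0 was set to 3 counts. Shares of cells were also read after thinning each cell to 1000 molecules (seed 0), which left out shallower cells (7 CD8 T, 2 CD4 T, 1 Treg and 0 NK). Named genes were all members, up to 4 called genes per list and comparison by median ratio, and the 3 genes nearest to each member. Prf1 and Ifng stand in 2 lists. The call rule was tested on simulated counts, but no outcome of that is given or relied on here. Gene coordinates are those of GENCODE vM21 (GRCm38), another release than the header's. The tools were edgeR 4.0.16 (TMM factors only) in R 4.3.3, and pandas 2.3.3, scipy 1.17.1, numpy 2.4.6 and matplotlib 3.10.9 in Python 3.11.15. Alternatives changed gates, filters, scaling and depth or left out a tag. 1 list gene is not reported here.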

Additional observations from a re-analysis of the deposited data

How the results depend on the processing

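No paired analysis was possible because the labels carry no replicate numbers, beyond the ratios themselves, which were all taken within a tag. Tox and Eomes (CD8 T against CD4 T), Tox (checkpoint CD8 T against other CD8 T), and Tox and Eomes (NK by the redrawn gate against CD8 T) kept their calls in every alternative run, and no called ratio turned round. With the first NK gate Tox was not called on the CPM scale (-0.65, -1.25 and -0.77), where it rested on 1, 3 and 0 molecules. The -0.77 was taken against the floor of 3 molecules, which makes it a bound. With that gate Eomes held in 14 of 15 settings. The count of members lower was 0 in cells thinned to 1000 molecules for Treg against CD4 T, checkpoint against other CD8 T and Tox against Tox-less CD8 T cells, where the molecules left were few, and 1 for NK against CD8 T. It was also 1 for NK against CD8 T with no other-lineage molecule allowed, with CPM averaged over cells, and with NK cells taken by any of the 3 receptor genes (chosen after seeing the data), where Tbx21 also lost its higher call. For checkpoint against other CD8 T cells, 2 members were higher without an other-lineage limit, 2 lower with no other-lineage molecule, 2 higher and 2 lower without tag 10, and 0 lower in cells without Mki67 or Top2a (chosen after seeing the data). Without tag 8, 1 member was lower in CD8 T than in CD4 T cells. For the 22 cells of the first NK gate, 0 were higher with stricter gates, 1 higher at 10% mitochondrial molecules, 1 lower with up to 1 T receptor molecule and 1 lower with TMM scaling. The NK gate without CD3 and the run without melanoma-rich cells were likewise chosen after seeing the data. Depth limits Id3 and Prdm1 in NK cells and Id3, Eomes and Bach2 in Treg cells, which rest on under 20 molecules. Except where values above say otherwise, the cause of a lost or gained call was not tested.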
